A study of Homo sapiens with 6 samples.

Results

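This section describes 10 genes of the Notch pathway in ME180 cells, an epithelial line from a human cervical carcinoma: the receptors NOTCH1, NOTCH2 and NOTCH3, the ligands JAG1, JAG2 and DLL1, the DNA-binding protein RBPJ, the target genes HES1 and HEY1, and the inhibitor NUMB. They were taken by gene name from a table of 58302 genes, and all 10 were found. The siControl group (3 libraries) was given a control siRNA, the siSGK1 group (3 libraries) an siRNA against the kinase SGK1, and polyA RNA was sequenced 48 h later. No allele or other agent is named, so the cells of both groups share the line, the transfection and the time. The series calls the 3 libraries of a group biological repeats and numbers them 2, 3 and 4. The groups stand for 1 cell line and, as labelled, 1 siRNA preparation against SGK1, whose sequence is not given in the sources used here.

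Notch signalling runs between touching cells. A Jagged or Delta-like ligand on a cell pulls on a Notch receptor on its neighbour, ADAM proteases and then gamma-secretase cut the receptor, and the freed intracellular part enters the nucleus, binds RBPJ and turns on genes such as HES1 and HEY1, which encode repressors. In squamous epithelium the pathway is known for driving basal cells into the layers above, and NUMB, an endocytic adaptor, is known for lowering the amount of receptor.

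RBPJ binds DNA at motifs close to GTGGGAA, and the promoters of HES1, HES4 and HES5 are shown because the results compare these targets. Sequences are RefSeq promoter windows of GRCh38.p14, 250 bases before to 50 bases after the annotated start, 5′ to 3′ on the gene's strand. Capitals mark matches to GTGNGAA (N is any base) on either strand. HES1 lies at chr3:194135898-194136197 on the plus strand, HES4 at chr1:1000048-1000347 and HES5 at chr1:2530214-2530513, both on the minus strand.
HES1: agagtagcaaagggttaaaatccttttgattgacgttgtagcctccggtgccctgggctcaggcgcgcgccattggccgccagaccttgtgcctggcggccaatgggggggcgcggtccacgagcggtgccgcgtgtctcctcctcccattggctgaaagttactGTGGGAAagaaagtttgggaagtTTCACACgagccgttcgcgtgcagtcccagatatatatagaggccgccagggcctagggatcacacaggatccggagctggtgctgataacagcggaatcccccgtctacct
HES4: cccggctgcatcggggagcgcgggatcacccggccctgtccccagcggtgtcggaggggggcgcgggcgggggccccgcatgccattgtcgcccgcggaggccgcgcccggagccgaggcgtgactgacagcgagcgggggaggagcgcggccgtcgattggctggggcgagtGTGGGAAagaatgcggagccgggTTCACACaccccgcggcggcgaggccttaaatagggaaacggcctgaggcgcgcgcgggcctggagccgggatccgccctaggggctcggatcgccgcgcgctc
HES5: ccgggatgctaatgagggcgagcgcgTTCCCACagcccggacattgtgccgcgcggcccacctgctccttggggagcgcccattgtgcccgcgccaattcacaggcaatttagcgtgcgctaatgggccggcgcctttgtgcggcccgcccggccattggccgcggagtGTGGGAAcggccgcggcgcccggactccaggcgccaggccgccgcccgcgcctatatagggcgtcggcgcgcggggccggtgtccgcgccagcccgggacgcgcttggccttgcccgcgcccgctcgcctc

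HES1 and HES4 each held 2 matches facing each other with 16 bases between them, GTGGGAA upstream and GTGTGAA on the other strand downstream. In HES1 they covered bases −85 to −79 and −62 to −56 from the start, and in HES4 bases −77 to −71 and −54 to −48. HES5 held 2 matches to GTGGGAA itself, 136 bases apart. Of 35116 promoter windows of this length, 13.8% held at least 1 match to GTGNGAA, 1.26% held at least 2 and 6.25% held GTGGGAA itself, a motif that GTGNGAA includes. Windows were found for 8 of the 10 genes, all but DLL1 and HEY1. Those of NOTCH1, NOTCH2, NOTCH3, JAG1, JAG2 and NUMB held no match, and 1 of 5 RBPJ windows held 2. A match describes the letters and is not a measured binding site.

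Levels are in FPKM, which corrects read counts for gene length and library size. The length is a single deposited value per gene, whichever transcripts the cells make. Levels compared between genes, and the shares and orders built on them, are therefore approximate. Each FPKM traced back to a whole number of reads, 27262794 to 35242643 per library. SGK1 measured 3.91, 4.27 and 4.17 FPKM in siControl replicates 2, 3 and 4 and 1.58, 1.70 and 1.81 FPKM in siSGK1, which left 41.2% of the control level (limma log2 change −1.07, SE 0.07, adjusted p = 1.88e-05; exact two-sided permutation test on FPKM, p = 0.1, the smallest that 3 against 3 allow). Of 6 epithelial markers, TP63, CDH1 and EPCAM were not called, and KRT5, KRT14 and DSG3 fell, to 73.7%, 39.0% and 65.0% of control. The 6 together summed to 5356 to 5600 FPKM in siControl and 3225 to 3785 FPKM in siSGK1, most of it from KRT5 and KRT14. The part of the 6 markers in the results below was not tested, and in bulk RNA fewer cells of a type and less RNA per cell cannot be told apart. All 4 leukocyte markers and 3 of 4 fibroblast markers stayed below 0.1 FPKM in every library, and COL1A1 measured 4.68 to 5.70 FPKM. The endothelial markers summed to 1.38 to 1.66 FPKM in siControl and 0.71 to 0.88 FPKM in siSGK1, and PECAM1 was at 0. Only VWF fell in that sum, from a mean of 1.34 to 0.53 FPKM, while CDH5 was at 0.22 and 0.27 FPKM. Libraries differed by base composition: across 11928 genes, the Spearman correlation between the GC share of the transcript and a library's difference from the others of its group was 0.40, −0.05 and −0.37 for siControl replicates 2, 3 and 4 and 0.35, −0.57 and 0.42 for siSGK1. The correlation with the difference between the groups was −0.24. Genes share these libraries and are not replicates.

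All 3 receptors and both Jagged ligands were lower after SGK1 knockdown, NOTCH3 the most, while HES1 fell and HEY1 rose. The call of JAG2 was kept in only 7 of 17 alternative processing settings, and that of HEY1 in 12 of 16. Of the 10 genes, all passed the filter of a mean of at least 1 FPKM, 6 fell and 1 rose at an adjusted p below 0.05 (limma on log2(FPKM + 0.5), adjusted over 11945 genes). Of all genes tested, 22.7% fell and 17.9% rose, 40.6% together. The median log2 change was −0.21 over the 10 genes and −0.006 over all tested genes. The 2 groups of libraries did not overlap for 8 of the 10, as for 53.4% of all tested genes. Under total-read and TPM scaling the median gene moved to 0.12 and 0.19, and the 10 genes then gave 2 rises and 4 falls, against 4309 rises and 1546 falls (total-read) and 5645 and 1171 (TPM) over all genes, which as deposited were 2143 and 2709. Directions below are therefore relative to the median gene.

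**Figure D1:**
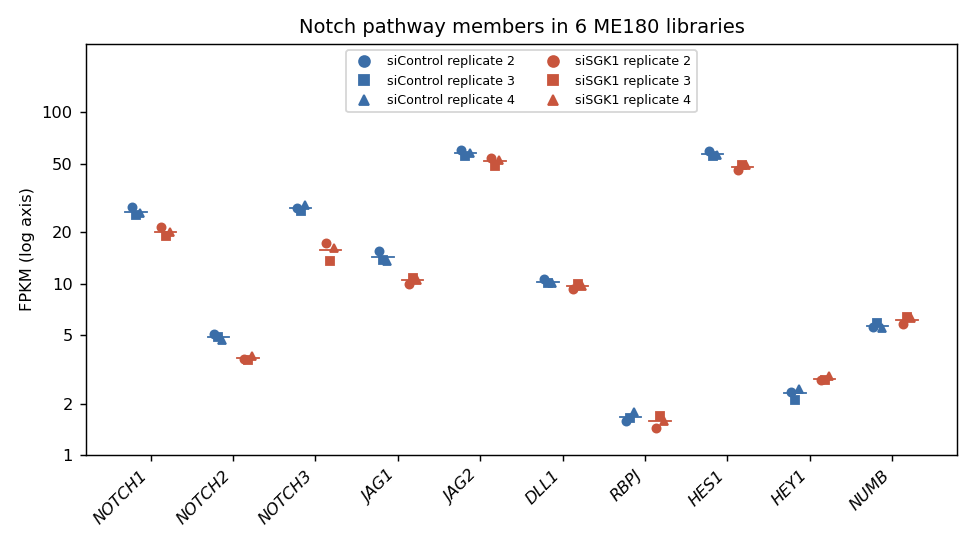
FPKM (log axis) of the 10 genes in each of the 6 libraries, with siControl in blue, siSGK1 in red, a marker shape for each replicate number and a line at each group mean. NOTCH3 drops from 26.5 to 28.9 FPKM in siControl to 13.6 to 17.3 FPKM in siSGK1, while RBPJ and NUMB overlap between groups.

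NOTCH3 (ENSG00000074181, chromosome 19, 15159038 to 15200981, minus strand, GRCh38 as for all positions here), a receptor best known from vascular smooth muscle, measured 27.5, 26.5 and 28.9 FPKM in siControl replicates 2, 3 and 4 and 17.3, 13.6 and 16.1 FPKM in siSGK1. Every siSGK1 library was below every siControl library, and siSGK1 replicate 3 was the lowest. The mean fell to 56.8% of control, from 27.6 ± 1.2 to 15.7 ± 1.9 FPKM (SD, n = 3 each; limma log2 change −0.80, SE 0.08, adjusted p = 0.000173). Of all tested genes, 1.71% had a lower log2 change. NOTCH3 transcripts are GC-rich (63.1%, above 92.3% of tested genes). Without siSGK1 replicate 3 the log2 change was −0.71, and with the GC trend of each library removed it was −0.70 (adjusted p = 0.000105).

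NOTCH1 (ENSG00000148400, chromosome 9, 136494444 to 136545862, minus strand), the receptor best known for keratinocyte differentiation, measured 27.9, 25.2 and 25.8 FPKM in siControl and 21.4, 18.8 and 19.95 FPKM in siSGK1. The groups did not overlap. NOTCH1 fell to 76.3% of control (log2 change −0.38, SE 0.06, adjusted p = 0.00156). Its transcripts are also GC-rich (62.9%), and with the GC trend removed the log2 change was −0.28 (adjusted p = 0.00118).

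NOTCH2 (ENSG00000134250, chromosome 1, 119911553 to 120069626, minus strand), the least abundant of these receptors, measured 5.07, 4.87 and 4.71 FPKM in siControl and 3.62, 3.59 and 3.799 FPKM in siSGK1. Again no siSGK1 library reached the lowest siControl library. NOTCH2 fell to 75.1% of control (log2 change −0.37, SE 0.06, adjusted p = 0.00107), and its GC share (49.4%) was close to the median of tested genes (49.6%). NOTCH2NL, a near-identical partial copy, was credited with 8 to 24 reads per library against 1789 to 2339 for NOTCH2, so reads that both could give make the NOTCH2 value uncertain. NOTCH4, the remaining receptor, stayed at 0.03 to 0.10 FPKM, below the filter.

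With NOTCH4 included, the receptors summed to 58.9 ± 2.0 FPKM with control siRNA and to 39.5 ± 3.2 FPKM with SGK1 siRNA (SD, n = 3 each; exact permutation p = 0.1). NOTCH3 made up 46.9% ± 1.6 of that sum in siControl and 39.6% ± 1.7 in siSGK1, and NOTCH1 made up 44.7% ± 1.4 and 50.9% ± 1.2. These shares do not depend on the scaling between libraries. The log2 ratio of NOTCH1 to NOTCH3 was 0.02, −0.07 and −0.16 in siControl and 0.31, 0.47 and 0.31 in siSGK1, with no overlap, a shift of 0.43 (exact two-sided permutation test, p = 0.1, the smallest possible, and 0.125 adjusted over 5 ratios). By contrast, the log2 ratio of NOTCH1 to NOTCH2 overlapped between groups, at 2.37 to 2.46 in siControl and 2.39 to 2.57 in siSGK1 (exact permutation p = 0.8).

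**Figure D2:**
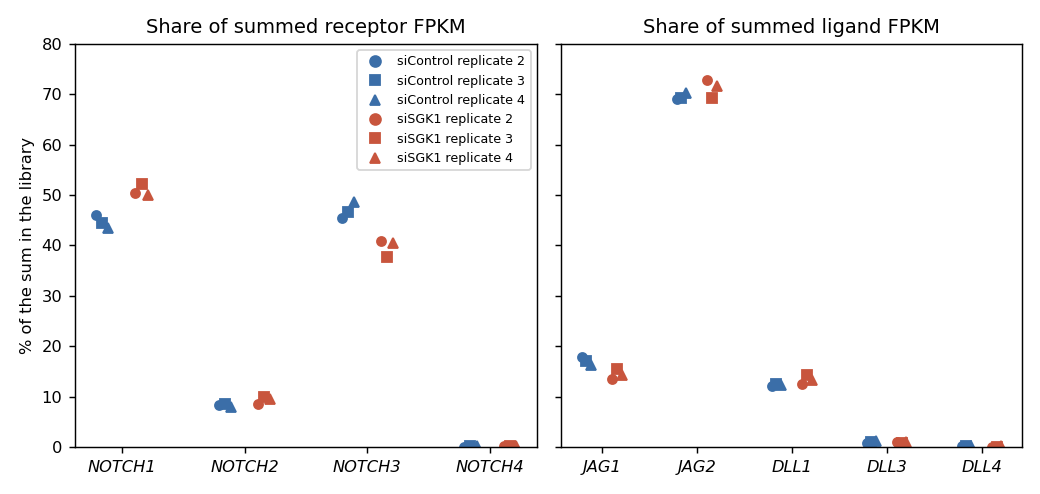
Share (%) of each gene in the summed FPKM of 4 receptors (left) and 5 ligands (right), with 1 point per library, siControl in blue and siSGK1 in red. NOTCH3 and NOTCH1 lie near 47% and 45% in siControl and near 40% and 51% in siSGK1, and JAG2 holds 69.1% to 72.9% of ligand FPKM in all 6 libraries.

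The ligands changed unequally. JAG1 (ENSG00000101384, chromosome 20, 10637684 to 10674107, minus strand), a Jagged ligand with the same extracellular plan as JAG2, measured 15.6, 13.8 and 13.5 FPKM in siControl and 9.98, 10.9 and 10.5 FPKM in siSGK1. All siSGK1 libraries lay below all siControl libraries. JAG1 fell to 73.1% of control (log2 change −0.43, SE 0.06, adjusted p = 0.00102). Its exons share 79 bases with AL050403.2 on the other strand, which had at most 4 reads in a library.

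JAG2 (ENSG00000184916, chromosome 14, 105140981 to 105168824, minus strand) was the most abundant of the 10 genes. It measured 60.2, 55.9 and 58.0 FPKM in siControl and 54.1, 48.4 and 52.7 FPKM in siSGK1. The highest siSGK1 library came close to the lowest siControl library without reaching it. JAG2 fell to 89.1% of control (log2 change −0.17, SE 0.05, adjusted p = 0.0387). The call was lost without siControl replicate 2, 3 or 4 (adjusted p = 0.122, 0.0563 and 0.0845) and without siSGK1 replicate 3 or 4 (adjusted p = 0.0671 and 0.0700). With the GC trend removed, JAG2, whose transcripts are 64.0% GC, had a log2 change of −0.06 (adjusted p = 0.161), and under TPM scaling its sign turned (log2 change 0.04). JAG2 shares 469 exon bases with AL512356.1, which had at most 1 read.

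DLL1 (ENSG00000198719, chromosome 6, 170282206 to 170306565, minus strand), a Delta-like ligand, measured 10.6, 10.1 and 10.1 FPKM in siControl and 9.34, 9.94 and 9.71 FPKM in siSGK1. The groups did not overlap, but the change was not called (log2 change −0.08, 95% interval −0.19 to 0.03, adjusted p = 0.203). The sign of DLL1 turned under TPM and total-read scaling and with the GC trend removed. The other ligands DLL3 (0.53 to 0.95 FPKM), DLL4 (0.04 to 0.15 FPKM) and the related DLK1 (0 to 0.02 FPKM) were below the filter.

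Summed ligand FPKM, with DLL3 and DLL4, was 83.5 ± 3.3 with control siRNA and 72.5 ± 2.4 with SGK1 siRNA (SD, n = 3 each; exact permutation p = 0.1). JAG1 made up 17.1% ± 0.8 of it in siControl and 14.4% ± 1.1 in siSGK1, and the ranges, 16.3% to 17.8% and 13.5% to 15.6%, did not overlap. The log2 ratio of JAG1 to JAG2 was −1.95, −2.02 and −2.10 in siControl and −2.44, −2.16 and −2.33 in siSGK1, a shift of −0.28 (exact two-sided permutation test, p = 0.1, 0.125 adjusted over 5 ratios). No siSGK1 library reached the lowest siControl ratio.

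**Figure D3:**
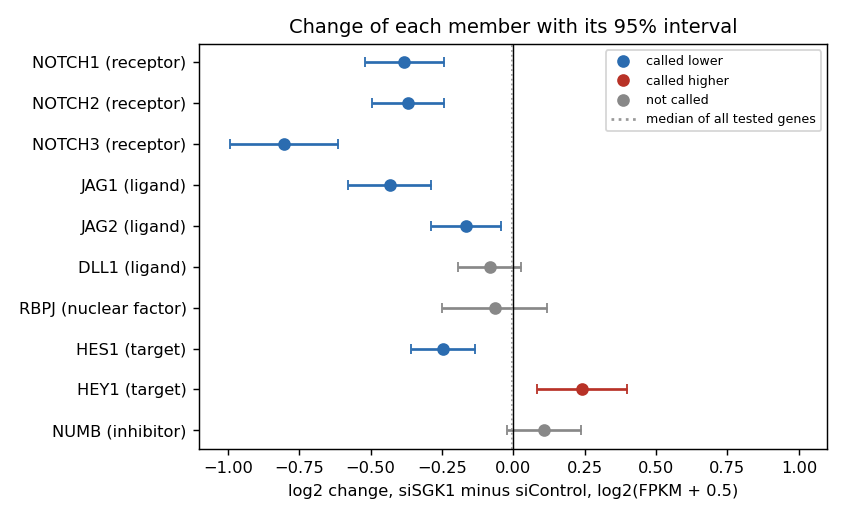
The log2 change (siSGK1 minus siControl on the log2(FPKM + 0.5) scale) of the 10 genes, with 95% intervals from the limma fit, coloured by call, beside the median of all tested genes (dotted line). NOTCH3 lies farthest from 0 at −0.80, HEY1 is the only gene called higher, at 0.24, and the intervals of DLL1, RBPJ and NUMB include 0.

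RBPJ (ENSG00000168214, chromosome 4, 26163455 to 26435131, plus strand), which carries the Notch signal to DNA and represses targets without it, was the least abundant of the 10. It measured 1.58, 1.64 and 1.78 FPKM in siControl and 1.44, 1.69 and 1.58 FPKM in siSGK1. The groups overlapped (log2 change −0.07, 95% interval −0.25 to 0.12, adjusted p = 0.551), and the sign turned under TPM and total-read scaling. RBPJ pseudogenes on chromosome 9 had at most 1 read in any library.

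The target genes went both ways. HES1 (ENSG00000114315, chromosome 3, 194136145 to 194138732, plus strand), whose promoter is printed above, encodes a repressor that also acts on its own gene. It measured 59.8, 55.5 and 55.9 FPKM in siControl and 46.1, 49.0 and 49.0 FPKM in siSGK1, with no overlap. HES1 fell to 84.2% of control (log2 change −0.25, SE 0.05, adjusted p = 0.00428). The call was lost under TPM scaling (log2 change −0.04, adjusted p = 0.493) and total-read scaling (−0.11, adjusted p = 0.109); relative to the median gene of each scaling, the change was −0.24 and −0.23.

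HEY1 (ENSG00000164683, chromosome 8, 79764010 to 79767863, minus strand), a repressor of the related HEY family, was the gene of the 10 that rose. It measured 2.35, 2.10 and 2.42 FPKM in siControl and 2.75, 2.74 and 2.89 FPKM in siSGK1. All siSGK1 libraries were higher than all siControl libraries, on 176 to 342 reads per library. The mean was 1.22 times control (log2 change 0.24, SE 0.07, adjusted p = 0.0231). HEY1 no longer passed when siControl replicate 3 (adjusted p = 0.0880), siSGK1 replicate 2 (0.0502) or siSGK1 replicate 4 (0.0801) was left out, or when no level filter was used (0.0658). The log2 ratio of HES1 to HEY1 was 4.67, 4.72 and 4.53 in siControl and 4.07, 4.16 and 4.09 in siSGK1, a shift of −0.54 that does not depend on the scaling between libraries (exact two-sided permutation test, p = 0.1, 0.125 adjusted over 5 ratios).

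NUMB (ENSG00000133961, chromosome 14, 73275107 to 73463642, minus strand) measured 5.58, 5.89 and 5.52 FPKM in siControl and 5.78, 6.36 and 6.30 FPKM in siSGK1. The groups overlapped through siControl replicate 3 and siSGK1 replicate 2, and the change was not called (log2 change 0.11, 95% interval −0.02 to 0.24, adjusted p = 0.16). Under TPM and total-read scaling NUMB passed as higher (log2 change 0.31 and 0.24, adjusted p = 0.00548 and 0.0147); relative to the median gene these are 0.12 and 0.12. The log2 ratio of RBPJ to NUMB was −1.82, −1.84 and −1.63 in siControl and −2.002, −1.91 and −1.99 in siSGK1, a shift of −0.20 (exact permutation p = 0.1, 0.125 adjusted over 5 ratios).

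The order of levels in siControl was JAG2, HES1, NOTCH3, NOTCH1, JAG1, DLL1, NUMB, NOTCH2, HEY1 and RBPJ. The ranges of JAG2 and HES1 overlapped, as did those of NOTCH3 and NOTCH1, and all other neighbours were separated. In siSGK1 the order was the same except that NOTCH1, at 20.1 ± 1.3 FPKM, stood above NOTCH3, at 15.7 ± 1.9 FPKM, without overlap.

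The other genes of the pathway were taken as a list of 62 by role, of which 50 passed the filter, 14 fell and 4 rose, where 22.7% and 17.9% of all tested genes did, with a median log2 change of −0.10. With TPM scaling 7 fell and 16 rose, and with total-read scaling 9 fell and 12 rose. Of 7 tested genes listed by role as targets, 4 fell and the other 3 were not called. Whether each of them responds to Notch in these cells was not tested. HES5, a repressor of the HES family, measured 5.89, 6.20 and 5.34 FPKM in siControl and 2.99, 2.24 and 3.22 FPKM in siSGK1, which is 48.5% of control (log2 change −0.94, SE 0.11, adjusted p = 0.000352). HES2 fell from 57.2 ± 0.5 to 36.6 ± 1.8 FPKM (SD, n = 3 each; adjusted p = 3.49e-05), and HEY2, a relative of HEY1, from 1.90 ± 0.08 to 1.1 ± 0.04 FPKM (adjusted p = 0.000471). The fourth to fall, HES6, chosen after its values were seen, is known to oppose HES1 and went from 7.83 ± 0.88 to 5.09 ± 0.20 FPKM. HES4, named for its promoter above, measured 51.4, 44.2 and 43.8 FPKM in siControl and 43.5, 43.3 and 45.3 FPKM in siSGK1, and was not called (log2 change −0.07, 95% interval −0.22 to 0.07, adjusted p = 0.395).

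HEY1, the target that rose, had no promoter window. Of the 9 genes listed as targets that had one, HES1, HES4, HES5, HEY2 and HEYL held a match to GTGNGAA. So did 13.8% of all windows, and 4491 of 27305 genes with windows. HES2, HES6, HES7 and NRARP held none. Among those with a match, HES1, HES5 and HEY2 fell, HES4 was not called, and HEYL was below the filter at 0.39 to 0.55 FPKM. Among those without one, HES2 and HES6 fell, and HES7 and NRARP were not called (adjusted p = 0.427 and 0.261). Whether a match goes with a fall was not tested.

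**Figure D4:**
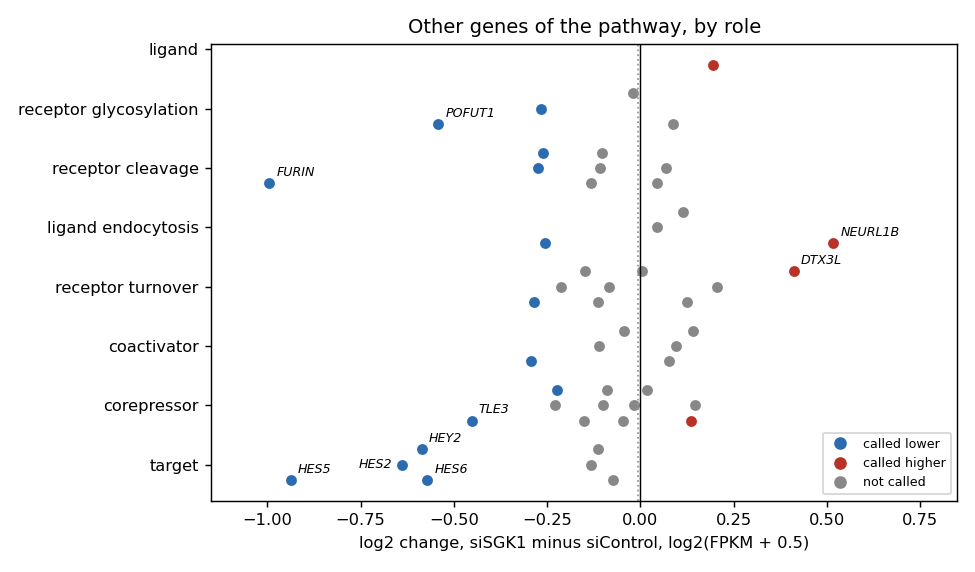
The log2 change (siSGK1 minus siControl) of the 50 tested other pathway genes, by role, coloured by call, with names for changes beyond 0.4 and a dotted line at the median of all tested genes. FURIN and HES5 lie near −1, POFUT1, HES2, HEY2 and HES6 between −0.5 and −0.7, and NEURL1B and DTX3L are the rises beyond 0.4.

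Of the genes that prepare the receptor, 2 of 4 tested glycosylation genes fell and none rose at the deposited scaling, against 22.7% and 17.9% of all tested genes. POFUT1, which adds the first fucose to Notch, went from 10.1 ± 0.5 to 6.77 ± 0.25 FPKM (SD, n = 3 each; log2 change −0.54, adjusted p = 0.000176). LFNG, a fringe enzyme that extends that sugar, went from 6.76 ± 0.65 to 5.53 ± 0.29 FPKM (adjusted p = 0.0217), a call lost without siControl replicate 2 or 3 or siSGK1 replicate 3 (adjusted p = 0.0703, 0.0788 and 0.0690). The LFNG call was also lost under TPM and total-read scaling (adjusted p = 0.356 and 0.132) and without a level filter (0.0868). RFNG, another fringe enzyme, was at 6.78 ± 0.35 and 7.24 ± 0.50 FPKM and was not called (adjusted p = 0.303), but passed as higher with the GC trend removed (log2 change 0.20, adjusted p = 0.0117) and under TPM and total-read scaling (0.29 and 0.22, adjusted p = 0.00528 and 0.0172). The median gene itself moved to 0.19 and 0.12 under TPM and total-read scaling. RFNG shares 835 of 3865 exon bases with GPS1 on the other strand. MFNG, below the filter, measured 0.51 to 0.91 FPKM.

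Of 8 tested cleavage genes, 3 fell and none rose at the deposited scaling, against 22.7% and 17.9% of all tested genes. FURIN, the convertase that makes the first cut of the receptor precursor, measured 15.7, 14.4 and 13.6 FPKM in siControl and 7.47, 6.65 and 6.99 FPKM in siSGK1. It fell to 48.4% of control (log2 change −0.996, SE 0.07, adjusted p = 2.23e-05). APH1A, a gamma-secretase subunit, went from 70.2 ± 0.6 to 58.5 ± 3.8 FPKM (SD, n = 3 each; adjusted p = 0.00486). With TPM scaling APH1A was not called (adjusted p = 0.181). PSEN2, a catalytic subunit, went from 2.64 ± 0.34 to 2.09 ± 0.14 FPKM (adjusted p = 0.0395), and its call was lost when any library but siControl replicate 4 was left out (adjusted p = 0.0582 to 0.132) and with the GC trend removed (adjusted p = 0.0956). The PSEN2 call was also lost under TPM and total-read scaling (adjusted p = 0.375 and 0.197) and without a level filter (0.137). APH1B, below the filter, measured 0.08 to 0.29 FPKM.

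Genes of ligand endocytosis and receptor turnover split. NEURL1B, a ubiquitin ligase of the Neuralized family, rose from 7.55 ± 0.27 to 11.0 ± 0.5 FPKM (SD, n = 3 each; log2 change 0.52, adjusted p = 0.000172). MIB2, a Mind bomb ligase that acts on ligands, fell from 6.14 ± 0.07 to 5.07 ± 0.15 FPKM (adjusted p = 0.0039) but was not called with the GC trend removed (adjusted p = 0.0620), and 219 of its exon bases overlap AL691432.2 on the other strand. MIB2 was also not called under TPM and total-read scaling (adjusted p = 0.303 and 0.0754). NEURL4 was not called (adjusted p = 0.192) but passed as higher with the GC trend removed (0.00998) and under TPM and total-read scaling (0.00367 and 0.0117), and NEURL1 lay at 0.14 to 0.32 FPKM. The NEURL4 log2 changes under TPM and total-read scaling were 0.32 and 0.24, where the median gene moved to 0.19 and 0.12. Of 9 tested turnover genes, 1 fell and 1 rose, against 22.7% and 17.9% of all tested genes. DTX4 fell from 10.6 ± 0.1 to 8.63 ± 0.10 FPKM (adjusted p = 0.00118), a call kept in 16 alternative settings and lost in 1. DTX3L rose from 9.53 ± 0.70 to 12.8 ± 0.4 FPKM (adjusted p = 0.000986) and overlaps PARP9, on the other strand, by 217 exon bases. NUMBL, the paralogue of NUMB, was at 3.32 ± 0.35 and 2.78 ± 0.14 FPKM and was not called (adjusted p = 0.061; 0.0173 without siControl replicate 4). DTX1 lay at 0.05 to 0.29 FPKM.

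Of 6 tested coactivators 1 fell, and of 11 tested corepressors 2 fell and 1 rose, where 40.6% of all tested genes were called. KAT2B, an acetyltransferase, fell from 3.22 ± 0.20 to 2.53 ± 0.14 FPKM (SD, n = 3 each, adjusted p = 0.00978), a call kept in 14 alternative settings and lost in 2. MAML1, which joins RBPJ and the cut receptor, was at 9.28 ± 0.29 and 9.95 ± 0.06 FPKM and was not called (adjusted p = 0.134), but passed as higher with the GC trend removed (adjusted p = 0.0155) and under TPM and total-read scaling (0.00159 and 0.00494). Those scalings also moved the median gene, to log2 changes of 0.19 and 0.12. EP300, an acetyltransferase, was not called at 4.15 ± 0.07 and 3.81 ± 0.15 FPKM (adjusted p = 0.138). TLE3, a Groucho corepressor that HES proteins recruit, fell from 7.03 ± 0.38 to 5.0 ± 0.27 FPKM (adjusted p = 0.000669). RITA1, which exports RBPJ from the nucleus, fell from 13.1 ± 0.7 to 11.2 ± 0.4 FPKM (adjusted p = 0.0108). The RITA1 call was kept in 13 alternative settings and lost in 4. Among the losses were the fit without siControl replicate 3 (adjusted p = 0.0511) and that with the GC trend removed (0.0588). HDAC1 rose from 78.9 ± 2.4 to 86.6 ± 1.2 FPKM (adjusted p = 0.0314), a call lost when siControl replicate 2, 3 or 4 or siSGK1 replicate 2 or 4 was left out (adjusted p = 0.0557 to 0.114). The ligand-like DLK2 rose from 14.9 ± 0.4 to 17.1 ± 0.9 FPKM (adjusted p = 0.0162; 0.0503 to 0.0584 without siControl replicate 4, siSGK1 replicate 2 or siSGK1 replicate 4), and shares 79 exon bases with ABCC10 on the other strand. Of the overlapping genes, GPS1 had at most 6562 reads in a library (RFNG 1103) and PARP9 3140 (DTX3L 2677). ABCC10 had at most 835 (DLK2 1413) and AL691432.2 at most 175 (MIB2 1583). As no source used here gives the strand setting of the counting, reads in these overlaps cannot be told apart. MAML3 (0.33 to 0.65 FPKM), L3MBTL3 (0.62 to 0.93 FPKM) and TLE4 (0.42 to 0.58 FPKM) were below the filter.

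An earlier search of these libraries had singled out short sequences in 3′ UTRs whose genes tended to move, among them CTATGCA and TATGCAA in lower genes and TCGGAGA and CGGAGAA in higher ones. The 3′ UTR of JAG1 (GENCODE 29, 1814 bases) holds the first pair as a single overlapping run of 8 bases, and that of RBPJ holds CTATGCA alone. Both sites are shown 5′ to 3′ with the run in capitals.
JAG1: tctcacagCTATGCAAaaagctag
RBPJ: tctcatgaCTATGCAgtttctaa
Of 10311 tested protein-coding genes with a 3′ UTR, 9.37% held CTATGCA, 11.9% TATGCAA, 2.89% TCGGAGA and 3.67% CGGAGAA. In that order, the median log2 changes of genes with the sequence were −0.069, −0.024, 0.072 and 0.058. Genes without it had medians of −0.003, −0.006, −0.010 and −0.011. As these sequences were picked on the changes in these libraries, how their holders moved is no independent evidence. The other 8 genes, NOTCH3 included, held none of these 4 heptamers. Of the pathway genes named above, FURIN, POFUT1 and HEY2 held CTATGCA and TATGCAA, HES2 held CTATGCA, KAT2B and HDAC1 held TATGCAA, NEURL1B held TCGGAGA, and DTX4 held TCGGAGA and CGGAGAA. Among these holders HDAC1 rose and DTX4 fell, opposite to the direction given for their heptamers, and the others moved in the direction given. These pathway genes were themselves named for small p-values in the same libraries, so their directions are no independent evidence either. The part of these sites in the changes was not tested.

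**Figure D5:**
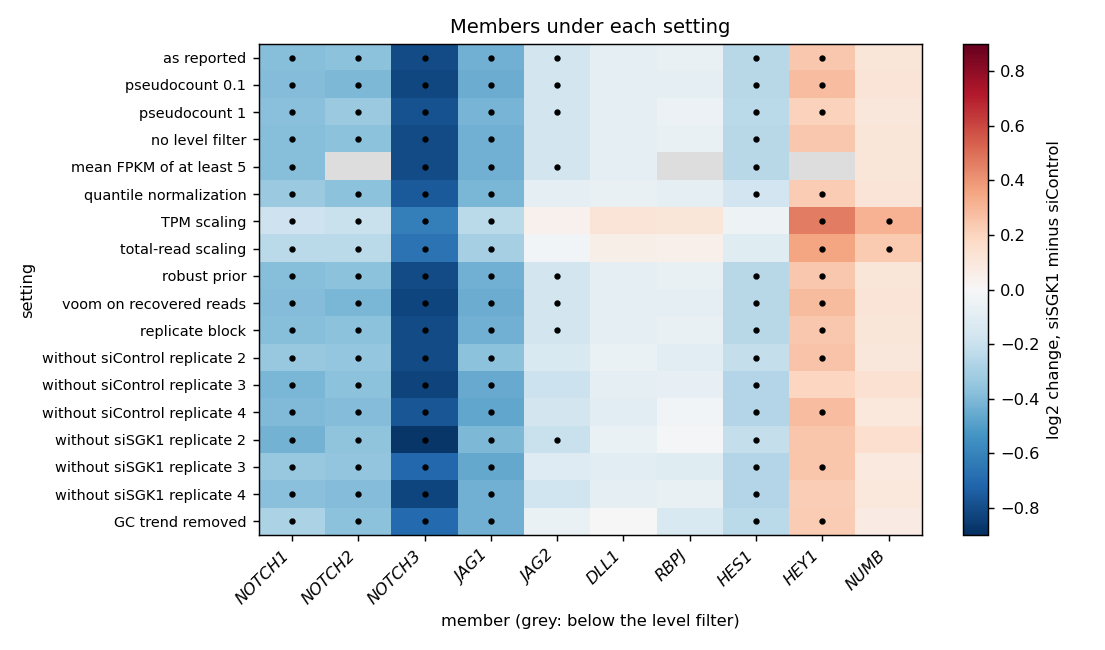
The log2 change (colour) of each of the 10 genes as reported and under 17 other settings, with a dot where the adjusted p was below 0.05 and grey where the gene was below the filter. NOTCH1, NOTCH3 and JAG1 carry a dot in every row and NOTCH2 in every row where it was tested, while JAG2 and HEY1 lose theirs when single libraries are left out.

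Across 17 alternative settings, NOTCH1 (log2 change −0.43 to −0.18), NOTCH3 (−0.88 to −0.61) and JAG1 (−0.47 to −0.24) were called lower in each, and NOTCH2 (−0.41 to −0.20) in each of the 16 in which it was tested. HES1 kept its call in 15 of 17, HEY1 in 12 of 16 and JAG2 in 7 of 17.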

How the data were processed

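The table holds FPKM values deposited by the authors, 1 column for each of 6 libraries, with gene names, lengths and positions. HISAT2 2.0.5, featureCounts 1.5.0-p3, bcl2fastq 2.19 and the build hg19 are named, per the submitters' processing notes. How strand and multiply mapping reads were treated is not given in the sources used here. Deposited positions match GRCh38, not hg19, at 97.4% of the 58084 identifiers found in GENCODE 29, including 7 of the 10 genes. FPKM times the deposited gene length, which is in bases, was a whole multiple of 1 step for 100% of values above 0 (tolerance 0.001), and the implied library size matched median-of-ratios scaling over 19967 genes.

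The limma package 3.58.1 (R 4.3.3) was fitted to log2(FPKM + 0.5) (intensity trend, two-sided, Benjamini-Hochberg over 11945 genes with a mean of at least 1 FPKM). Every adjusted p-value of a gene is from that fit or the named alternative. Shares and ratios within libraries were compared by exact permutation. Sequences and figures used Python 3.11.15. Alternatives were 17 settings, of which removal of the GC trend was chosen after seeing the data. The members and lists were chosen with earlier results of these data known. Named were the 10 genes, SGK1, up to 3 tested genes per role with the smallest p, and genes below the filter. Outside that rule, HES4 was named for its promoter, HES6 after its values were seen, and HES7 and NRARP for the comparison of promoter windows. Cell type markers and genes that overlap or resemble a named gene were also given. The limma p-values set the change between groups against the spread between the 3 libraries of a group, moderated over all tested genes. The permutation p-values compare the difference of group means with that of every split of the 6 libraries.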

Additional observations from a re-analysis of the deposited data

How the results depend on the processing

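Settings changed 1 choice at a time. The count of members called higher, 1 as reported, was 0 without a level filter (limma; 1 at an unadjusted p below 0.05), 0 with a mean of at least 5 FPKM, a filter that leaves HEY1 untested (0 at an unadjusted p below 0.05), 2 with TPM scaling, 2 with total-read scaling, 1 by voom, and 0 to 1 when a library was left out. The members called lower were 4 to 6 in all settings. Other pathway genes called higher, 4 as reported, were 16 with TPM scaling, 12 with total-read scaling, 7 with the GC trend removed and 2 to 4 with a library left out; those called lower, 14 as reported, were 7, 9, 15 and 11 to 15. Signs turned for JAG2 under TPM scaling (log2 change 0.037), for DLL1 under TPM scaling (0.12), total-read scaling (0.051) and with the GC trend removed (0.0031), for RBPJ under TPM and total-read scaling (0.11 and 0.043), and for EP300 likewise (0.076 and 0.014). All of these but DLL1 without the GC trend stayed below the median gene of their setting. The shift of the HES1 to HEY1 ratio was −0.40 after quantile normalization. That value was taken on log2(FPKM + 0.5), whereas the reported −0.54 had nothing added to FPKM, so more than the normalization differed. On log2(FPKM + 0.5), HES1 changed by −0.25 as reported and −0.17 after quantile normalization, and HEY1 by 0.24 and 0.23. The cause of these differences was not tested, except that scaling moves all genes together. The replicate numbers were not used as pairs, since the deviations of same-numbered libraries correlated at 0.12, 0.01 and −0.10; with the replicate block 4560 genes were called instead of 4852, the members again gave 6 falls and 1 rise, and of the named pathway genes HDAC1 lost its call (adjusted p = 0.0829).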
